A study of Mus musculus with 3 samples.

Results

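The splicing tables of the hippocampus listed 422 mutually exclusive exon pairs in 363 genes, among 8727 alternative splicing events of all 5 types. They are the union of the 3 tables of this event type, matched by gene, chromosome, strand and every coordinate, and no pair was left out. Each table compares a pair of libraries, and 147 pairs stood in all 3 tables, 193 in 2 and 82 in 1. The study asked whether an expanded CUG repeat disturbs splicing in the brain, as in myotonic dystrophy type 1, and whether CWG-cPIP, a cyclic pyrrole-imidazole polyamide that binds CAG and CTG repeat DNA, changes that. RNA came from the hippocampus of wild type C57BL/6J mice of 10 weeks, with 1 mouse per group. Every mouse carried an AAV9 vector, injected into the CA1 region on both sides, that put the repeat into the 3′-UTR of Egfp mRNA. The groups were AAV9-CUG10 with vehicle (CUG10 + vehicle, 10 repeats), AAV9-CUG300 with vehicle (CUG300 + vehicle, 300 repeats) and AAV9-CUG300 with CWG-cPIP (CUG300 + CWG-cPIP). The repeat RNA came from the vector and not from an expanded Dmpk gene, and no mouse without vector was analysed here. With 1 library per group, each test compares 2 libraries and not the conditions, and the intervals of PSI and of its differences cover counting error only. Where 3 values are listed without library names, they stand in this same order of the groups.

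Mutually exclusive exons are neighbouring exons of which a mature mRNA carries either one or the other. Many arose by duplication of an exon, so that both encode the same stretch of the protein in alternative versions, and the choice sets properties such as receptor desensitisation, membrane remodelling or enzyme kinetics. In the brain, well known examples are the flip and flop exons of AMPA receptors, the alternative exons of the synaptic fusion protein SNAP-25, those of dynamin 1 and the tropomyosins, and the exons that separate PKM1 from PKM2. In what follows exon A is the exon that comes first along the transcript and exon B the next. PSI (percent spliced in) is the share of exon A once the counts of both forms are scaled for their effective lengths, so that a PSI of 1 means that all counts came from exon A.

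The sequences of 6 pairs are shown first, as examples of pairs of equal length, never annotated together, in genes known for such exons. They were read from GENCODE M21 transcripts on GRCm38 (mm10), 5′ to 3′ on the strand of the gene, and capitals mark the positions at which exon A and exon B differ when laid side by side without gaps. Tpm3, a tropomyosin gene, holds exon A at chr3:90088401-90088476 and exon B at chr3:90089048-90089123 on the plus strand, and 37 of 76 positions differed.
Tpm3 exon A: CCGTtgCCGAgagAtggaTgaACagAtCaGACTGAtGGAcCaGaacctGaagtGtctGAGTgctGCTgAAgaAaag
Tpm3 exon B: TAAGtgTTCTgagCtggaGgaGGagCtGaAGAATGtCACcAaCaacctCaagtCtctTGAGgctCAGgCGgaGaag

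Dnm1 encodes dynamin 1, the GTPase that cuts synaptic vesicles from the membrane. Its exon A lies at chr2:32334682-32334820 and its exon B at chr2:32333066-32333204 on the minus strand, and 39 of 139 positions differed.
Dnm1 exon A: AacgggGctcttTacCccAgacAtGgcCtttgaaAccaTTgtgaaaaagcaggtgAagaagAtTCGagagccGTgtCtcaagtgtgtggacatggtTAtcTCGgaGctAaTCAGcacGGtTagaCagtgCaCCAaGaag
Dnm1 exon B: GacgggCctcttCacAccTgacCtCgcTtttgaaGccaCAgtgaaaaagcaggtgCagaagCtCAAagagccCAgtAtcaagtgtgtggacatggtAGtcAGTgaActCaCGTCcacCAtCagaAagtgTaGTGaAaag

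Pkm encodes pyruvate kinase M, with exon A specific to PKM1 and exon B specific to PKM2. Exon A lies at chr9:59675029-59675195 and exon B at chr9:59675568-59675734 on the plus strand, and 64 of 167 positions differed.
Pkm exon A: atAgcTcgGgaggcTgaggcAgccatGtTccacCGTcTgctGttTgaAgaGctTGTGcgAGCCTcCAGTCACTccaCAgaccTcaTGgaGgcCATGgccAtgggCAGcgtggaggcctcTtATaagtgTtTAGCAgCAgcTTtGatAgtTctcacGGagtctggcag
Pkm exon B: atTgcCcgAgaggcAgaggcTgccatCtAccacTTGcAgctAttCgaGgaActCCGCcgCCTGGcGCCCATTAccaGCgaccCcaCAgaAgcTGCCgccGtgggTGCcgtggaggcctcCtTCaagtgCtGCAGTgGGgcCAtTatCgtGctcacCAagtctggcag

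Gria1 encodes an AMPA receptor subunit, with exon A as the flop and exon B as the flip version. Exon A lies at chr11:57309769-57309883 and exon B at chr11:57310608-57310722 on the plus strand, and 36 of 115 positions differed.
Gria1 exon A: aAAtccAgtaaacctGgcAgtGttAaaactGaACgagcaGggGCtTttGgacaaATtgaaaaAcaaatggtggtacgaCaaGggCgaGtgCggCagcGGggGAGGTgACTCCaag
Gria1 exon B: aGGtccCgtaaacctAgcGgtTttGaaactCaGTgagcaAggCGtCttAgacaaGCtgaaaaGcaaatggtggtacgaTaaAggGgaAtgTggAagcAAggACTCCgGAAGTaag

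Snap25 encodes the SNARE protein SNAP-25 of synaptic vesicle fusion. Exon A lies at chr2:136769743-136769860 and exon B at chr2:136770057-136770174 on the plus strand, and 31 of 118 positions differed.
Snap25 exon A: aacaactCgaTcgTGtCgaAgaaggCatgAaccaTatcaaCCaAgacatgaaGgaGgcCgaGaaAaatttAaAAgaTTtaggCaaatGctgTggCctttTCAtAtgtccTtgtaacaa
Snap25 exon B: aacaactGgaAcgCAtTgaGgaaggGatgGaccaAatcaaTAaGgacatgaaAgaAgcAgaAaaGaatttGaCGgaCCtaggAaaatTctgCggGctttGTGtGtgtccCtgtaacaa

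Rab6a encodes a small GTPase of Golgi transport. Exon A lies at chr7:100629666-100629771 and exon B at chr7:100629838-100629943 on the plus strand, and 30 of 106 positions differed.
Rab6a exon A: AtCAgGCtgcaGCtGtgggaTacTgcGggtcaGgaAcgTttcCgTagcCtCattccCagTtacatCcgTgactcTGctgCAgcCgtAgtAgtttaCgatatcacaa
Rab6a exon B: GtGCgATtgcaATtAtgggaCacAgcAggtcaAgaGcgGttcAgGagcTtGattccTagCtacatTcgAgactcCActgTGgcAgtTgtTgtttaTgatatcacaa

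Pairs of equal length, like these 6, were the exception. Both exons had the same length in 36 pairs, of which 16 had lengths that are a multiple of 3 and 20 had not, and all 36 were coding on both sides. Lengths were unequal in 386 pairs, with both a multiple of 3 in 117 and not in 269. The length difference was 0 or another multiple of 3 in 228 pairs. These were the 36 pairs of equal length, the 117 pairs with both lengths a multiple of 3 and 75 others, and in the remaining 194 pairs it was not a multiple of 3. Exon A ranged from 6 to 2880 nt (median 100 nt) and exon B from 15 to 5217 nt (median 102 nt). Exon A was coding in 353 pairs, partly coding in 29, and in a UTR or a noncoding transcript in 32. Coding means fully inside the coding sequence of any annotated transcript, even where another transcript has the exon as UTR. Both exons were coding in 338 pairs. By length alone, the exchange of exon A for exon B would keep the reading frame in 196 of these and shift it in 142. Most pairs also stand together in an annotated transcript, as given below, and for those an exchange need not occur.

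The annotation gives a partial view of whether the exons of a pair exclude each other, since exons were matched by their exact ends. In 412 pairs both exons matched annotated GENCODE M21 exons exactly. An annotated transcript held both exons together in 342 pairs, in 329 of them joined directly, and in 322 the transcript was protein coding. No annotated transcript held both in 70 pairs, and in 10 pairs an exon was not annotated. A pair can be among the 70 although a variant of its exon with other ends is annotated together with the partner. In 2210408F21Rik, named for this alone, the 118/29-nt pair was never annotated together. Its 118/72-nt pair, whose exon B contains the 29-nt exon, was together in 4 transcripts. The pairs never annotated together made up 14 of the 20 equal pairs whose length is not a multiple of 3 (70.0%), and 7 of the 16 equal pairs whose length is (43.8%). They were rarer among pairs of unequal length, with 10 against 105 annotated together where both lengths are multiples of 3 (8.70%) and 39 against 222 in the remaining class (14.9%). The intron between the exons was also shorter in pairs never annotated together, with a median of 713 nt against 3143 nt, and it was under 1000 nt in 39 of 70 (55.7%) against 96 of 342 pairs (28.1%). Identity between exons of equal length was 48.8% to 79.3% (median 61.6%) in the 21 pairs never annotated together and 25.5% to 72.2% (median 51.3%) in the 15 annotated together. The highest identity, 79.3%, belonged to Scn8a, a neuronal sodium channel gene named here for that value alone, which had only 9, 1 and 8 counts.

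**Figure D1:**
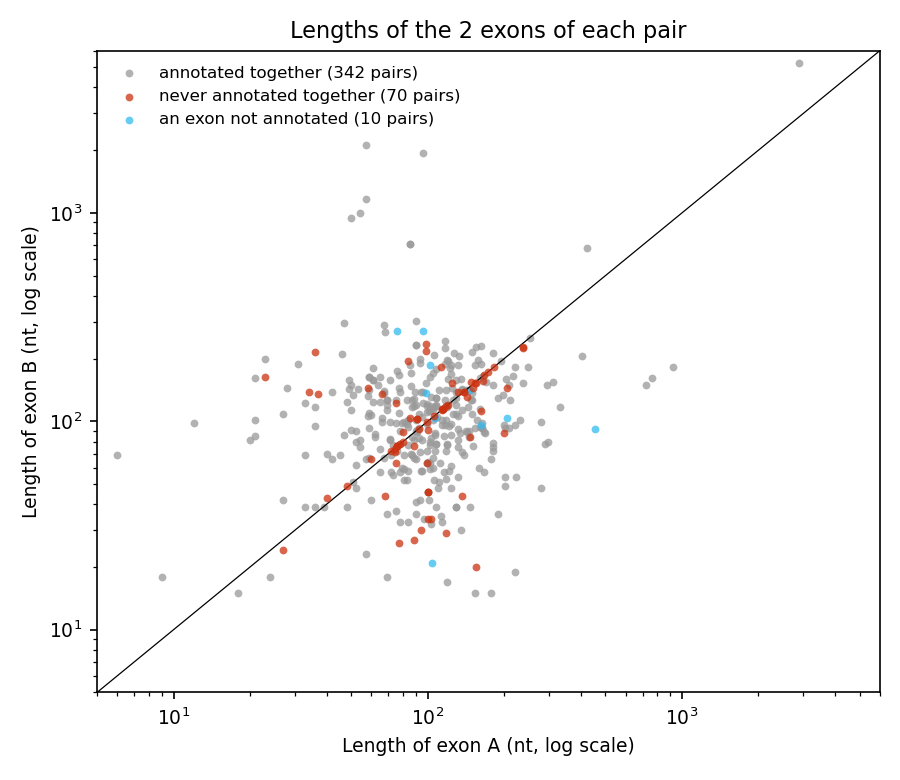
Length of exon A (nt, log scale) against length of exon B (nt, log scale) for the 422 pairs, coloured by whether an annotated transcript holds both exons. The diagonal marks equal length, where 21 of the 36 pairs are never annotated together.

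The counts offer another readout of the same exons, though not an independent one. Many of them were also listed as skipped exons with their partner exon as the neighbour, and the skipping reads of such an event lie on the junction that passes over 1 exon of the pair. The inclusion form of such an event joins exon A to exon B, so its listing is tied to whether the exons are annotated together. Its inclusion counts also share the reads inside the exon with the counts of the pair. Both exons had such an event in 266 of the 342 pairs annotated together. With at least 20 counts in both events, exon A and exon B each had a skipped-exon PSI above 0.9 in 131 of 161 pairs (81.4%) of the CUG10 + vehicle library, in 105 of 138 pairs (76.1%) of the CUG300 + vehicle library and in 127 of 165 pairs (77.0%) of the CUG300 + CWG-cPIP library. In the other pairs with that depth at least 1 of the exons was at or below 0.9. Since the deposited counts include reads inside an exon, mRNA that carries both exons adds counts to both forms of such a pair, and its PSI is the relative read coverage of exon A and exon B. Only 6 of the 70 pairs never annotated together had a skipped-exon event for both exons, and none of the 4, 2 and 4 that reached 20 counts in both events had both exons above 0.9. In Tpm3 the skipped-exon PSI of exon A was 0.0823, 0.281 and 0.160 and that of exon B 0.586, 0.411 and 0.580.

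Depth differed widely over the pairs. Of the 340 pairs with counts in all 3 libraries, 167 (49.1%) had at least 20 in each. The pairs summed to 45604 counts in the CUG10 + vehicle library, 40871 in CUG300 + vehicle and 41357 in CUG300 + CWG-cPIP, with a median of 36, 22.5 and 44 per pair. The CUG300 + vehicle library stood apart in neuron, immune and choroid plexus markers, given here as summed counts per 1000000 counts of all event types. Events of a gene can share exons, so a read can count more than once. The 7 of 14 listed neuron markers that were measured had counts in every library, as the labelled tissue should, and summed to 15562, 5746 and 14975, and all 7 were lowest in CUG300 + vehicle. Microglia and immune markers (10 of 18 measured) summed to 3453, 31519 and 6952, with Irf7 alone at 197, 10705 and 1273. All 10 were higher in CUG300 + vehicle than in CUG10 + vehicle. Choroid plexus markers (3 of 8 measured) summed to 783, 71292 and 721, most of it from Ttr (transthyretin) at 171, 67703 and 112. Astrocyte (3 of 9 measured), oligodendrocyte (4 of 11) and endothelial markers (2 of 7) went both ways. In CUG300 + vehicle against CUG10 + vehicle, 1, 1 and 1 of them were higher and 2, 3 and 1 lower. None of the measured markers was at 0 in a library. In bulk tissue fewer cells of a type and less RNA per cell cannot be told apart, and the part of cell makeup in the differences below was not tested. The comparison that leaves this library out is CUG300 + CWG-cPIP against CUG10 + vehicle.

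Levels followed the split by annotation. Among pairs with at least 20 counts in each library, PSI lay below 0.1 or above 0.9 in 9 of 19 pairs never annotated together (47.4%) in the CUG10 + vehicle library, in 8 (42.1%) in CUG300 + vehicle and in 9 (47.4%) in CUG300 + CWG-cPIP. Such extreme levels were found in 5, 5 and 6 of the 145 pairs annotated together (3.45%, 3.45% and 4.14%), whose median PSI was 0.450, 0.414 and 0.460. By class, over all pairs with counts in the CUG10 + vehicle library, the median PSI was 0.402 for equal lengths that are a multiple of 3 (16 pairs), 0.249 for equal lengths that are not (20), 0.473 for unequal lengths that both are (109) and 0.442 for the remaining 253. The medians of the same classes were 0.417, 0.286, 0.475 and 0.428 in CUG300 + vehicle and 0.538, 0.333, 0.462 and 0.462 in CUG300 + CWG-cPIP.

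**Figure D2:**
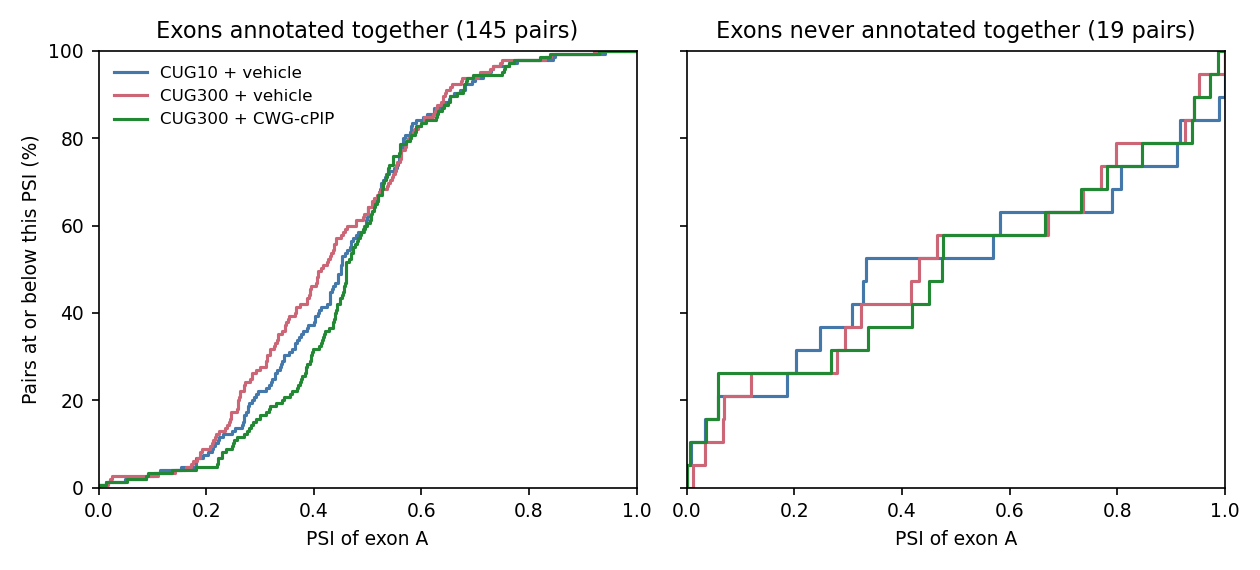
Cumulative share of pairs (%) against the PSI of exon A, 1 line per library, for the 145 pairs annotated together and the 19 never annotated together that had at least 20 counts in each library. The first group gathers around the middle of the scale, while 9, 8 and 9 of the 19 lie below 0.1 or above 0.9.

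A list of 52 genes known for mutually exclusive exons was used, and 12 of them had a pair with at least 20 counts in each library. Snap25 used exon B almost throughout. Its counts for exon A and exon B were 113 and 1820 in CUG10 + vehicle, 35 and 482 in CUG300 + vehicle, and 105 and 1687 in CUG300 + CWG-cPIP. PSI was therefore 0.0585 (95% Clopper-Pearson interval 0.0484 to 0.0699), 0.0677 (0.0476 to 0.0929) and 0.0586 (0.0482 to 0.0705), and the 3 intervals overlapped. The difference between CUG300 + vehicle and CUG10 + vehicle was 0.00924 with an interval from -0.0126 to 0.0360. Snap25 is itself among the neuron markers, which were lowest in CUG300 + vehicle, and the part of cell makeup was not tested.

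Exon B likewise dominated in Rab6a (PSI 0.0346, 0.0700 and 0.0364) and in the 76-nt pair of Tpm1, a tropomyosin gene of the actin cytoskeleton (0.00722, 0.0106 and 0.00633). Exon A dominated in Fyn, a Src family kinase with a brain version and a lymphocyte version of this exon (0.989, 0.951 and 0.939). Outside the list, exon A also dominated in Pfkp, the platelet type of phosphofructokinase, named as 1 of the 3 deepest pairs of its class. Its counts were 127, 68 and 110 for exon A and 0, 0 and 3 for exon B. PSI was 1 (0.971 to 1), 1 (0.947 to 1) and 0.973 (0.924 to 0.994). On the list, both AMPA receptor subunits leaned to exon A, the flop version. Gria1 had a PSI of 0.789 (0.735 to 0.837), 0.737 (0.646 to 0.815) and 0.781 (0.735 to 0.822), with no difference beyond counting error. Gria2, whose exons stand together in only 1 annotated transcript, had 191 and 84, 95 and 62, and 198 and 64 counts for exon A and exon B, a PSI of 0.695, 0.605 and 0.756. Its difference of 0.151 between CUG300 + CWG-cPIP and CUG300 + vehicle (0.0589 to 0.242) missed the threshold over all events (adjusted p = 0.187, Fisher's exact test with Benjamini-Hochberg adjustment) and passed within the table of exclusive pairs (adjusted p = 0.0260). H2afy, which encodes the histone variant macroH2A1, gave 0.581, 0.671 and 0.732, and Mapk9, which encodes the kinase JNK2, gave 0.333, 0.280 and 0.450, and neither was called. For H2afy the interval of the difference between CUG300 + CWG-cPIP and CUG10 + vehicle left out 0 (0.151, 0.0043 to 0.293), with an unadjusted exact p of 0.0626. Of the 67-nt pair of U2af1, which encodes a subunit of the splicing factor that binds the 3′ splice site, PSI was 0.212, 0.263 and 0.329, and the intervals of all 3 differences held 0.

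**Figure D3:**
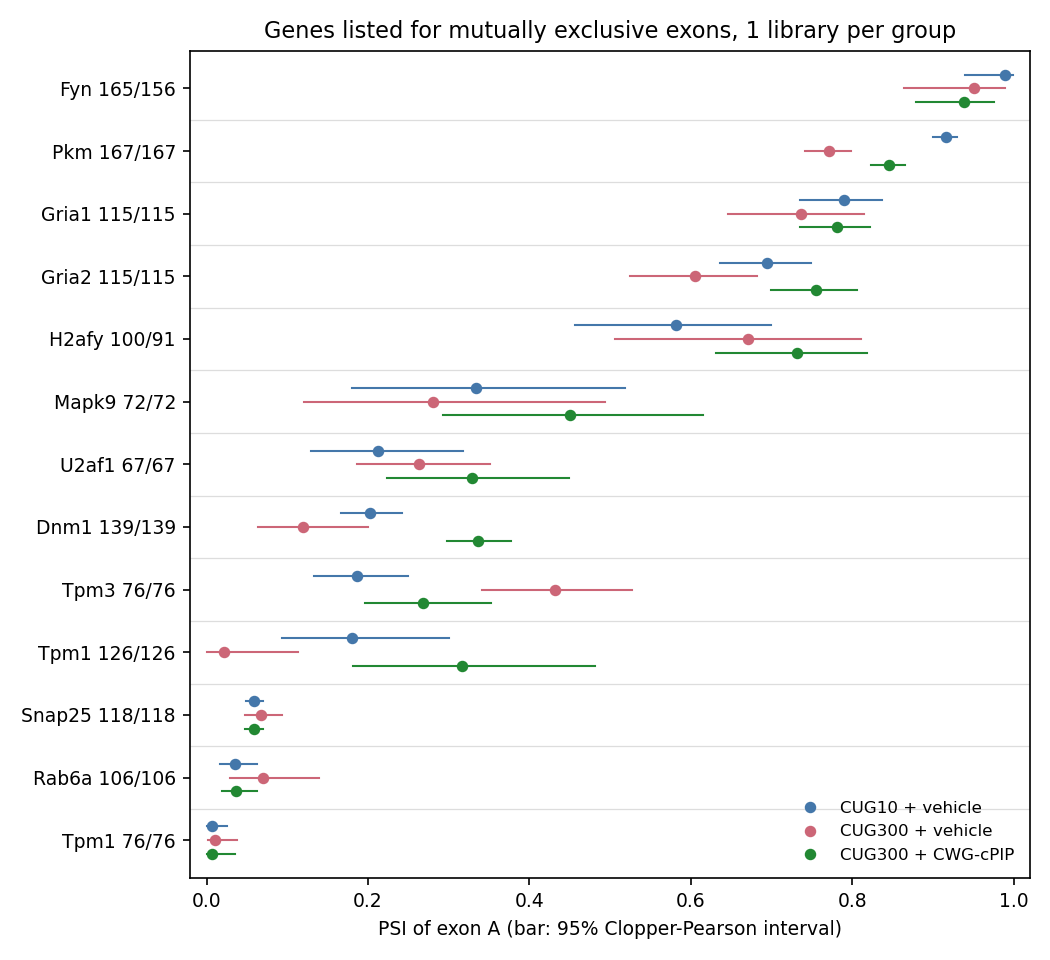
PSI of exon A in each library for the 12 genes of the list with at least 20 counts in each library, and for the 126-nt pair of Tpm1. Points are PSI, bars are 95% Clopper-Pearson intervals, and numbers after a gene are the lengths of exon A and exon B. In Tpm3 the CUG300 + vehicle library lies highest, at 0.432, and in Pkm lowest, at 0.771.

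In CUG300 + vehicle against CUG10 + vehicle, 1 of 303 listed pairs was called, at an adjusted p below 0.05 and a PSI difference above 0.15, and it was Tpm3. The background over all 5 event types was 9 of 6263 events (0.144%), of which 4 had a higher PSI (0.0639%), Tpm3 included. The other event types have no exon A, so a higher PSI has another meaning there. Tpm3 had 35 counts for exon A and 153 for exon B in CUG10 + vehicle, 51 and 67 in CUG300 + vehicle, and 36 and 98 in CUG300 + CWG-cPIP. PSI was 0.186 (0.133 to 0.249), 0.432 (0.341 to 0.527) and 0.269 (0.196 to 0.352). The intervals of CUG10 + vehicle and CUG300 + vehicle did not overlap, and that of CUG300 + CWG-cPIP overlapped both. Exon A rose by 0.246 (95% Newcombe interval 0.140 to 0.349, adjusted p = 0.00341, Fisher's exact test with Benjamini-Hochberg adjustment) in CUG300 + vehicle. In CUG300 + CWG-cPIP against CUG300 + vehicle the difference was -0.164 (-0.276 to -0.0457, adjusted p = 0.516), and against CUG10 + vehicle it was 0.0825 (-0.00922 to 0.177). Both exons are coding, and tropomyosins with alternative exons at this position bind actin and its partners differently.

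Pkm lay just under the size threshold. The counts for exon A (PKM1) and exon B (PKM2, a form known from proliferating and non-neuronal cells) were 1231 and 113 in CUG10 + vehicle, 659 and 196 in CUG300 + vehicle, and 969 and 177 in CUG300 + CWG-cPIP. PSI was 0.916 (0.90 to 0.930), 0.771 (0.741 to 0.799) and 0.846 (0.823 to 0.866), and none of the 3 intervals overlapped. The difference between CUG300 + vehicle and CUG10 + vehicle was -0.145 (-0.178 to -0.114, adjusted p = 4.5e-17), so that the p passed and the size did not. Between CUG300 + CWG-cPIP and CUG300 + vehicle it was 0.0748 (0.0400 to 0.110, adjusted p = 0.00895), and between CUG300 + CWG-cPIP and CUG10 + vehicle it was -0.0704 (-0.0963 to -0.0449, adjusted p = 6.84e-05). The neuron and immune markers moved between the same libraries, and their part was not tested.

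Among pairs annotated together, none of 239 was called in this comparison, and 26 had an unadjusted p below 0.05. Such a p was found in 29 of all 303 pairs (9.57%) and in 172 of 6263 events of all types (2.75%). For 3 of them the adjusted p passed and the size did not. Cox6b1, which encodes a subunit of cytochrome c oxidase, differed by -0.147 (-0.179 to -0.115, adjusted p = 1.34e-16). Tpt1, which encodes the translationally controlled tumour protein, differed by -0.0826 (-0.111 to -0.0543, adjusted p = 1.41e-05), and the 141/90-nt pair of Tusc3, a subunit of the oligosaccharyltransferase, by -0.139 (-0.205 to -0.0718, adjusted p = 0.0298).

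In CUG300 + CWG-cPIP against CUG300 + vehicle, 10 of 303 pairs were called, and in all 10 exon A was higher with CWG-cPIP. The background was 21 of 6679 events (0.314%) in both directions and 19 (0.284%) in this direction, the 10 pairs included. Only Dnm1 among the 10 was never annotated together. Its counts for exon A and exon B were 94 and 370 in CUG10 + vehicle, 12 and 88 in CUG300 + vehicle, and 193 and 380 in CUG300 + CWG-cPIP. PSI was 0.203 (0.167 to 0.242), 0.120 (0.0636 to 0.20) and 0.337 (0.298 to 0.377), highest in CUG300 + CWG-cPIP, whose interval overlapped neither of the others. Exon A rose by 0.217 (0.130 to 0.281, adjusted p = 0.00220) against CUG300 + vehicle. Against CUG10 + vehicle the difference was 0.134 (0.0802 to 0.187, adjusted p = 0.00122), below the size threshold.

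Tpm1 was called at its 126-nt pair, exon A at chr9:67048124-67048249 and exon B at chr9:67047786-67047911 on the minus strand, which only 1 annotated transcript holds together. The counts were 11 and 50, 1 and 46, and 13 and 28, a PSI of 0.180 (0.0936 to 0.300), 0.0213 (0.000539 to 0.113) and 0.317 (0.181 to 0.481). The call rests on 1 count for exon A in CUG300 + vehicle, and the rise of 0.296 (0.145 to 0.450) passed narrowly (adjusted p = 0.0447).

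The other 8 called pairs were annotated together, and as skipped exons both were nearly always included. Over these 8 pairs the skipped-exon PSI ranged from 0.935 to 1 for exon A and from 0.905 to 1 for exon B over the 3 libraries. The skipping reads summed to 70, 65 and 63 and the inclusion reads to 8847, 10903 and 6620. Cox6b1 led them by adjusted p. Its exon A at chr7:30624500-30624613, which is partly coding, and exon B at chr7:30623415-30623515 on the minus strand had 444 and 804 counts in CUG10 + vehicle, 355 and 1385 in CUG300 + vehicle, and 540 and 416 in CUG300 + CWG-cPIP. PSI was 0.340 (0.314 to 0.366), 0.193 (0.175 to 0.212) and 0.547 (0.515 to 0.579), with no overlap between libraries. The rise against CUG300 + vehicle was 0.355 (0.318 to 0.390, adjusted p = 1.11e-75). Yet the junction that skips exon A had 0, 2 and 0 reads against 1116, 1170 and 933 for its inclusion, and the junction that skips exon B had 4, 11 and 2 reads against 1480, 2209 and 811. The coverage of the exons relative to each other differed between the libraries, while either exon without the other was rare in each.

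Tpt1 showed the same layout, with 782 and 1099, 1006 and 2003, and 796 and 730 counts for exon A and exon B. PSI was 0.430, 0.348 and 0.536, a rise of 0.189 (0.158 to 0.219, adjusted p = 3.7e-30), and skipping of exon A had 1, 1 and 0 reads against 1158, 1589 and 1107. Edf1, a transcriptional coactivator, had a PSI of 0.332, 0.260 and 0.459, a rise of 0.199 (0.141 to 0.257, adjusted p = 1.28e-08). Epn1, which encodes the endocytic adaptor epsin 1, had 0.270, 0.234 and 0.437, a rise of 0.203 (0.145 to 0.256, adjusted p = 2.38e-08). In these 3 genes, as in Cox6b1, CUG300 + vehicle lay lowest and CUG300 + CWG-cPIP highest.

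The same order held in the 141/90-nt pair of Tusc3 (0.479, 0.340 and 0.581, a rise of 0.241), in Mrps18c, a mitochondrial ribosomal protein gene (0.482, 0.406 and 0.679, a rise of 0.274), and in the 88/67-nt pair of U2af1 (0.450, 0.261 and 0.683, a rise of 0.422). Hdgfrp2, a chromatin-associated factor of the HDGF family, was listed only for CUG300 + vehicle (0.555) and CUG300 + CWG-cPIP (0.756), a rise of 0.20 (adjusted p = 0.0233). U2af1 was thus called at the pair of its 88-nt and 67-nt exons and not at the pair of its alternative 67-nt exons, where the difference was 0.0661 (-0.0634 to 0.20). Likewise the 141/141-nt pair of Tusc3, the deepest pair of equal length that is a multiple of 3, stayed at 0.564, 0.562 and 0.560.

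**Figure D4:**
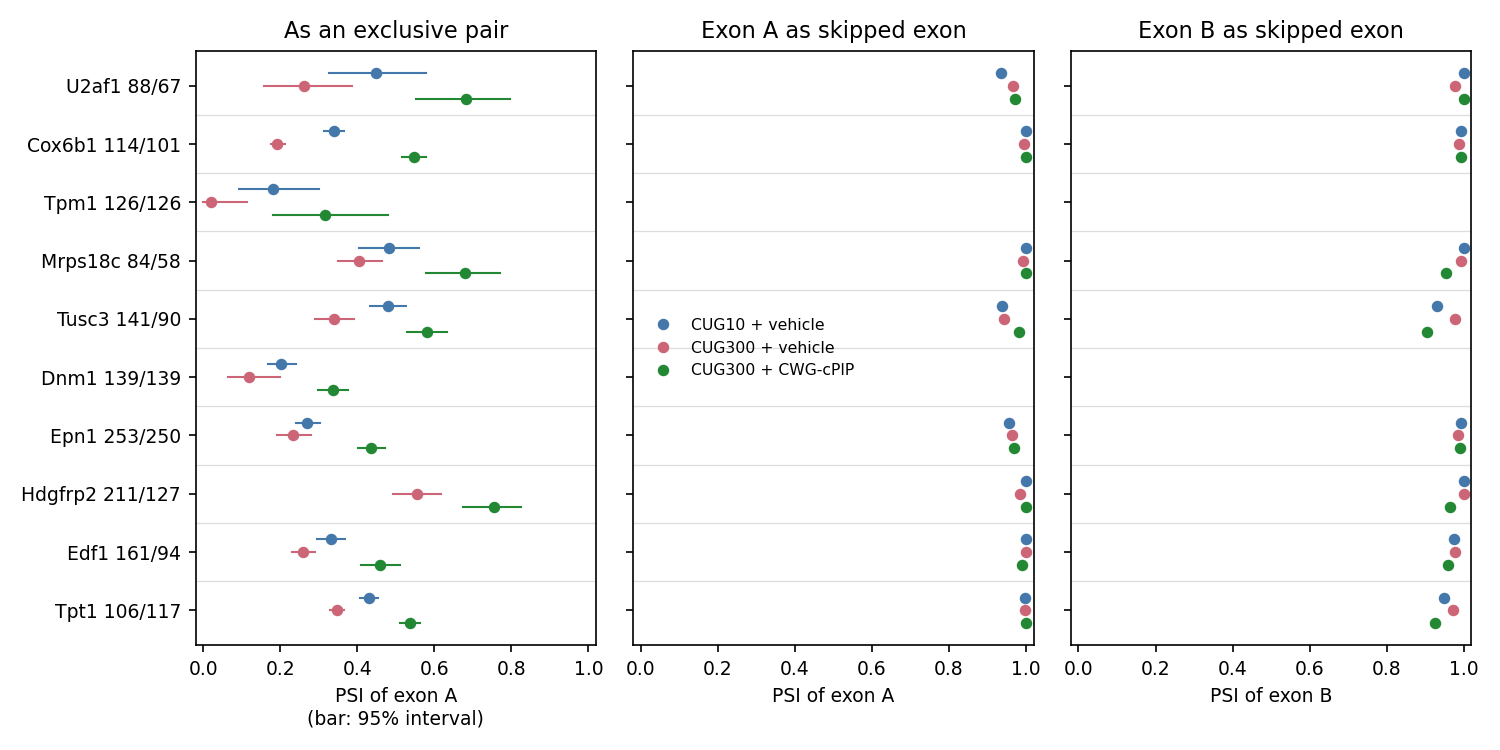
The 10 pairs called between CUG300 + CWG-cPIP and CUG300 + vehicle. The left panel shows the PSI of exon A as an exclusive pair with 95% Clopper-Pearson bars, and the others show the PSI of exon A and of exon B counted as skipped exons, which stays at or above 0.905 in the 8 pairs that have these events.

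The shift toward exon A was small over all pairs annotated together. With at least 20 counts in both libraries, 82 of 136 such pairs (60.3%) had a higher PSI in CUG300 + CWG-cPIP than in CUG300 + vehicle, with a median difference of 0.0318. In pairs never annotated together PSI was higher in 10 of 19 (52.6%), with a median difference of 0.0107. Over events of all types, most of which have no exon A, it was higher in 1479 of 2514 (58.8%), with a median difference of 0.0113. In CUG300 + vehicle against CUG10 + vehicle, with which this comparison shares a library, 61 of 139 pairs annotated together (43.9%) and 9 of 18 never annotated together had a higher PSI, and 1064 of 2526 (42.1%) over all types.

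CUG300 + CWG-cPIP against CUG10 + vehicle, which leaves out the CUG300 + vehicle library, gave 1 called pair of 303, against a background of 4 of 6983 events (0.0573%), of which 2 were higher (0.0286%). It was Epn1, exon A at chr7:5083730-5083982 and exon B at chr7:5089919-5090168 on the plus strand. The counts were 217 and 580 in CUG10 + vehicle, 86 and 279 in CUG300 + vehicle, and 341 and 436 in CUG300 + CWG-cPIP, and the rise against CUG10 + vehicle was 0.166 (0.119 to 0.212, adjusted p = 1.6e-08). The adjusted p also passed in Tpt1 (0.106, adjusted p = 1.32e-06), Dnm1 and Pkm (values above) and Edf1 (0.128, adjusted p = 0.0264), with differences below 0.15. It passed too in the 102/59-nt pair of Ptgds, a prostaglandin D synthase gene outside the rule for named genes, with a difference of 0.110 (0.0768 to 0.142, adjusted p = 2.9e-07). Cox6b1, Mrps18c and the 88/67-nt pair of U2af1 were not listed in the table of this comparison and were not tested in it. Among the 63 pairs never annotated together, none was called, and 5 had an unadjusted p below 0.05, against 25 of all 303 pairs (8.25%) and 157 of 6983 events of all types (2.25%).

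**Figure D5:**
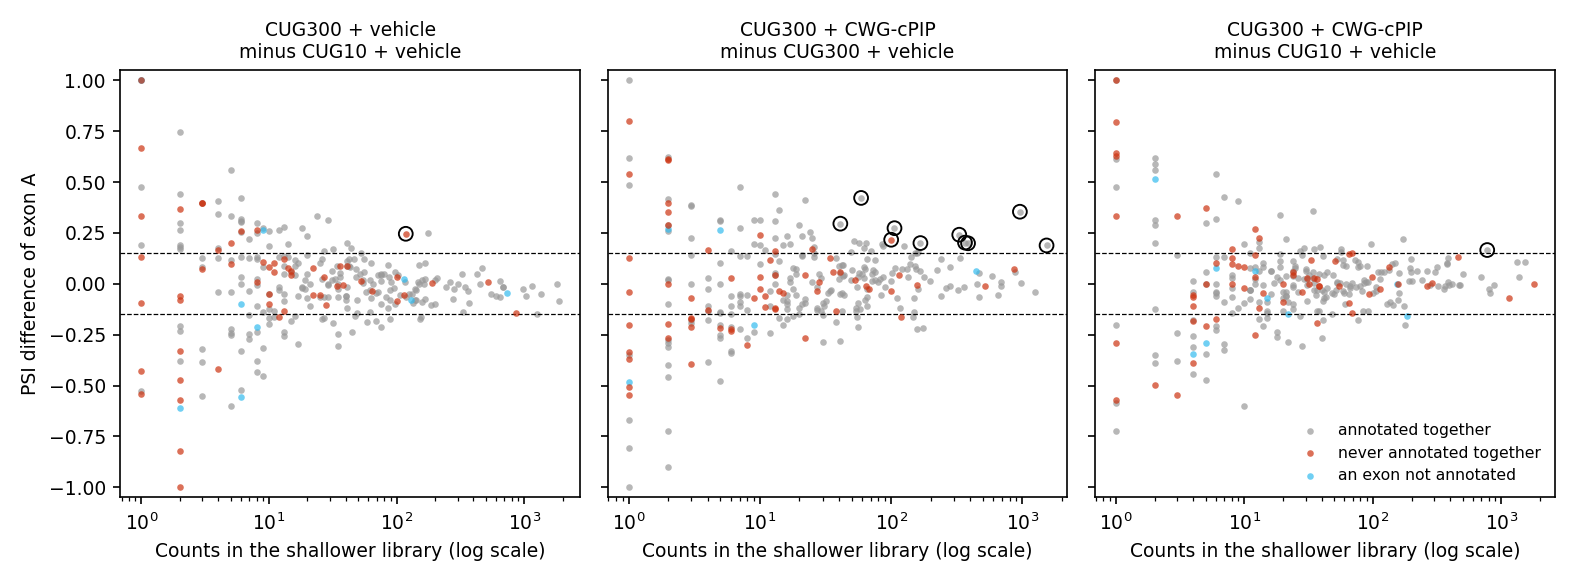
PSI difference of exon A against the counts in the shallower library (log scale) for the 303 pairs listed in each comparison, coloured by annotation. Dashed lines mark 0.15 in either direction and circles the 1, 10 and 1 called pairs, and the spread narrows as counts rise.

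The other deepest pairs of their classes were not called in any comparison that listed them. Rps9, a ribosomal protein gene, had a PSI of 0.510, 0.508 and 0.466. Skp1a, a subunit of SCF ubiquitin ligases, had 0.556, 0.508 and 0.587. App, which encodes the amyloid precursor protein, had 0.778, 0.751 and 0.754 at its 222/54-nt pair. Mbp, which encodes myelin basic protein, had 0.845, 0.829 and 0.820 at its 33/123-nt pair. Here the skipped-exon PSI of exon A was 0.992, 1 and 0.993 and that of exon B only 0.169, 0.163 and 0.202, so that exon A was nearly always included and exon B was not. Adgrb2, an adhesion receptor of the brain, gave 0.249, 0.246 and 0.369 at its 165/165-nt pair, with a skipped-exon PSI of 0.482, 0.467 and 0.614 for exon A and 0.977, 1 and 0.979 for exon B.

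Over all pairs 1, 10 and 1 of 303 were called in the 3 comparisons (0.330%, 3.30% and 0.330%), and the gene lists are given against that, with few pairs each. The genes known for mutually exclusive exons had 25 listed pairs in CUG300 + vehicle against CUG10 + vehicle, with 1 called higher (Tpm3) and none lower. Their median absolute difference was 0.0900, against 0.0977 over all 303 pairs. In CUG300 + CWG-cPIP against CUG300 + vehicle they had 26 pairs, 3 called higher (Dnm1, Tpm1 and the 88/67-nt pair of U2af1) and none lower, with 0.138 against 0.125. In CUG300 + CWG-cPIP against CUG10 + vehicle they had 24 pairs, none called and 3 with an unadjusted p below 0.05, with 0.0690 against 0.0837. The actin and cytoskeleton list had 4, 6 and 5 pairs in the 3 comparisons, with 1, 1 and 0 called, the tropomyosins Tpm3 and then Tpm1. Synapse, receptor and channel genes had 15, 14 and 17 pairs with 0, 1 and 0 called (Dnm1). RNA processing genes had 4 pairs in each with 0, 1 and 0 called (U2af1), and mitochondria and energy genes had 3, 2 and 2 pairs with 0, 1 and 0 called (Cox6b1). The median absolute difference in the 3 comparisons was 0.203, 0.165 and 0.137 for the cytoskeleton list, 0.0894, 0.182 and 0.125 for the synapse list, 0.0937, 0.178 and 0.107 for RNA processing and 0.147, 0.215 and 0.0632 for mitochondria. Where a list had none called, the unadjusted p was below 0.05 for 1 and 2 pairs of the synapse list, 1 and 0 of RNA processing, 3 and 1 of mitochondria and 1 of the cytoskeleton list, in CUG300 + vehicle against CUG10 + vehicle and then CUG300 + CWG-cPIP against CUG10 + vehicle, the cytoskeleton value being of the latter.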

How the data were processed

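RNA-Seq splicing tables of 3 hippocampus libraries, 1 mouse per group, were analysed. The submitters' processing notes name the build mm10 and the tools STAR 2.7.9a, RSEM 1.3.3, Trim Galore 0.6.6 and DESeq2 1.36.0. The authors quantified splicing with rMATS and deposited 15 tables, with raw counts of reads for each form (junction and exon body reads), effective form lengths and the inclusion level as a fraction. The effective length of a form exceeded its exon by 74 nt in every pair, which differs from what the read length in the study's methods would give, and this was not resolved. The authors' p, FDR and difference columns were not used.

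Recomputed PSI differed from the deposited fraction by at most 0.0005. Counts of a library in 2 tables were identical in 14737 of 14737 comparisons, which holds only if the columns follow the order of the groups in each table's name. Each listed event was tested with Fisher's exact test (two-sided, scipy 1.17.1), adjusted by Benjamini-Hochberg over all listed events of the 5 types, and called at an adjusted p below 0.05 and an absolute PSI difference above 0.15. Intervals are 95% Clopper-Pearson for PSI and Newcombe for differences. They cover counting error only, since each group holds 1 mouse. Reads had no molecular identifiers, so copies of a molecule could be counted more than once, and the intervals may be too narrow.

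Exons were matched to GENCODE M21 by exact ends. Pairs named are those called with at least 20 counts in each library (1 per gene, by lowest p), genes known for mutually exclusive exons with at least 20 counts in all 3 libraries, and the 3 deepest pairs of each class. The members and lists were chosen with earlier results of these data known. Alternatives covered the adjustment, depth, size threshold, length division, interval and 1 event per gene.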

Additional observations from a re-analysis of the deposited data

How the results depend on the processing

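Counts of called pairs are given in the order in which the comparisons stand above, where the main values were 1, 10 and 1. Adjustment within the table of exclusive pairs gave 2, 16 and 5, a size threshold of 0.1 gave 4, 10 and 5, and a threshold of 0.2 gave 1, 8 and 0. A minimum of 20 counts in each library gave 1, 12 and 2, and a minimum of 10 gave 1, 10 and 2. Without division by length the counts were 2, 10 and 1, the added call being Cox6b1 at -0.152 between CUG300 + vehicle and CUG10 + vehicle. The Newcombe interval alone, with no adjustment, gave 27, 39 and 18. With 1 event per gene, the deepest, they were 1, 6 and 1. Here a pair that was not the deepest of its gene was left out, called or not. Restriction to pairs never annotated together, chosen after seeing the data, left 1, 1 and 0. For the 74 differences of named pairs, 3 alternatives were compared: no length division, adjustment within the table, and the interval alone. The status, called or not called, stayed the same in 73, 73 and 69, and the others became calls. Most of the 74 were not called in the main setting, so this is mostly a count of differences that stayed uncalled. None of these alternatives can change the sign of a difference. Class medians of PSI at 20 counts in all 3 libraries were set against the 95% interval of the median over all pairs of the class. They lay within it, except for unequal lengths that are both multiples of 3 in CUG300 + CWG-cPIP (0.512 against 0.462). That interval is a range over exon pairs, which are not replicates, and not counting error. The deeper pairs are part of the same pairs, so lying within it is no test of the levels. The cause of the shifts between settings was not tested.

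No paired analysis was possible because each group holds 1 sample. Depth limits the rest, since only 167 of 422 pairs had 20 counts in each library.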

Other observations

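The gene with the most pairs was Irf7, which encodes an interferon regulatory factor of the antiviral response, with 6 pairs that share exons and are annotated together. It is outside the rule for named genes and was chosen after its values were seen. Its pairs held 2 to 13 counts in the CUG10 + vehicle library, 236 to 527 in CUG300 + vehicle and 30 to 65 in CUG300 + CWG-cPIP, so that these pairs were measured mostly in a single library. At the 59/67-nt pair PSI was 0.769 in CUG300 + vehicle and 0.481 in CUG300 + CWG-cPIP, a difference of -0.288 (95% Newcombe interval -0.461 to -0.108) that missed the threshold (adjusted p = 0.207, Fisher's exact test with Benjamini-Hochberg adjustment).

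Acp1 and Acsl6 are never annotated together, lay outside the rule and were chosen after their values were seen. Both had a short intron between the exons, at least 20 counts in each library, and used both exons. A short intron did not always go with this, since Rab6a, with 66 nt between its exons, used exon B almost alone (values above). Acp1, which encodes a low molecular weight phosphatase, has exons of 114 nt with an intron of 38 nt between them. Its PSI was 0.328 (0.218 to 0.454), 0.417 (0.255 to 0.592) and 0.477 (0.351 to 0.605), in the order of the groups above. Acsl6, which encodes a long-chain acyl-CoA synthetase of the brain, has exons of 78 nt with an intron of 57 nt, and its PSI was 0.569 (0.440 to 0.692), 0.464 (0.275 to 0.661) and 0.475 (0.362 to 0.590). Neither Acp1 nor Acsl6 was called in any of the 3 comparisons.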
